A study of Homo sapiens with 6 samples.

Results

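The peaks described here come from the lists that the authors named NotExon, and are places where RNA recovered with an antibody to SF3B4 gave overlapping peaks of similar extent in both repeats of an RNA immunoprecipitation (RIP) experiment. They were chosen by the measured start and end of each peak alone. A RIP-1 NotExon peak, called non-exon below after that name, was kept when it overlapped a RIP-2 NotExon peak by at least 50% of the length of both. Of 25797 such RIP-1 peaks, 3171 met this rule (12.3%, 95% Wilson interval 11.9 to 12.7), and the RIP-2 list had 134094 peaks. Every kept peak had 1 partner by this rule and no partner was used by more than 1 peak. Another 1508 RIP-1 peaks touched a RIP-2 peak with less overlap, and 21118 touched none. These 2 sets together form the 22626 other RIP-1 non-exon peaks that serve for comparison.

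All libraries came from HEK293T, an established human line of embryonic kidney origin with the SV40 large T antigen, and the labels give no treatment and no genotype. There were 6 libraries, with an anti-SF3B4, an IgG and an input library in each of the experiments RIP-1 and RIP-2, and the labels do not say whether these started from separate cultures. Each experiment has 1 peak list of each kind, so no value carries an error between replicates. The sources used here do not define the list names NotExon and mRNA, and do not say whether IgG or input served as the control of the peak calls.

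SF3B4 is a subunit of the SF3b complex, which belongs to the U2 small nuclear ribonucleoprotein and settles on the branch site of an intron before splicing. Its RNA-recognition motifs contact the precursor mRNA upstream of the branch site, so introns of unspliced transcripts are where U2 is known to work. METTL16, named with SF3B4 in the title of the series, is a methyltransferase that places N6-methyladenosine on a small set of RNAs. Non-exon peaks could lie in introns or between genes. Their gene context was not analysed here, since the gene table at hand belongs to another genome build than the hg19 positions of the lists.

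The rule selected for closeness of position, so the offsets within pairs are given as a description. The midpoints of a pair were 108.5 bp apart in the median, with the middle 50% of pairs between 48.5 and 196 bp. In 188 of the 3171 pairs the midpoints differed by at most 10 bp (5.93%, 95% interval 5.16 to 6.81), in 1484 by at most 100 bp (46.8%, 45.1 to 48.5) and in 113 by more than 500 bp (3.56%, 2.97 to 4.27). There was no preferred side. The partner's midpoint lay at the higher position in 1574 pairs and at the lower position in 1593, and the median signed offset, partner minus RIP-1 peak, was -1.0 bp.

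The rule itself limits how far apart the midpoints can be, to 50% of the width of the narrower peak. Within that limit the pairs were gathered near 0. Of 5 equal parts of the allowed range, the innermost held 1049 pairs (33.1%, 95% interval 31.5 to 34.7), and the next ones held 25.8%, 18.4%, 13.7% and 9.05% (8.10 to 10.1 in the outermost). Each covers 20% of the range. This falling series is a description of positions that the rule used and was not tested.

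**Figure D1:**
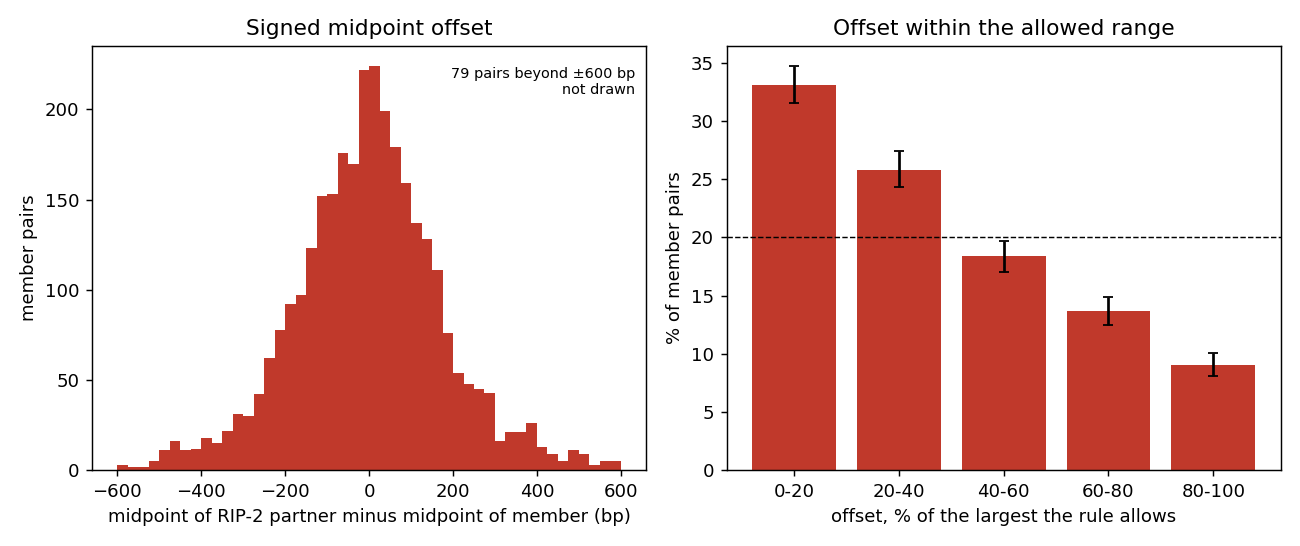
The left panel counts closely matched pairs by the midpoint of the RIP-2 partner minus the midpoint of the RIP-1 peak (bp, bins of 25 bp); the right panel gives the percentage of pairs in 5 equal parts of the offset that the rule allows, with 95% Wilson intervals and a dashed line at the 20% of the range that each part covers. The counts are highest around 0, and the bars fall from 33.1% to 9.05%.

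Edges were offset by about as much as midpoints and were seldom identical. In the non-exon pairs the median absolute difference was 119 bp for starts and 128 bp for ends, and 4 pairs had the same midpoint (0.126%, 95% interval 0.0491 to 0.324). A common start was found in 35 pairs (1.10%, 95% interval 0.795 to 1.53) and a common end in 54 (1.70%, 1.31 to 2.22). Both edges were identical in 0 of 3171 pairs, which allows a share of up to 0.0946%. Close pairs of the mRNA lists, matched by the same rule on the same strand, were unlike this: 468 of 623 had both edges in common (75.1%, 95% interval 71.6 to 78.4), and their median midpoint offset was 0 bp. Their RIP-1 intervals were as narrow as 4 bp, with a median of 164 bp, while no RIP-1 non-exon peak was below 206 bp. How the edges of mRNA-list intervals were set is unknown, so this contrast cannot show which kind of peak recurred better.

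The smallest edge differences were found in 5 pairs. On chromosome 5 the RIP-1 peak ran from 93518311 to 93518876 and its RIP-2 partner from 93518310 to 93518878 (hg19, as are all positions, counted from 1). The fold enrichment, like the score a deposited value of the authors for each peak, was 7.05 for the RIP-1 peak and 7.84 for its partner. On chromosome 18 the RIP-1 peak from 35588483 to 35589236 met a RIP-2 peak from 35588486 to 35589235, with fold enrichments of 7.46 and 8.67. These were peaks of ordinary strength, not the strongest of the set. On chromosome 8 the RIP-1 peak from 56287570 to 56288077 and the RIP-2 peak from 56287572 to 56288079 had the same width of 508 bp and fold enrichments of 6.63 and 8.67. On chromosome 17 a RIP-1 peak from 41441261 to 41441686 had a partner from 41441266 to 41441685, with fold enrichments of 5.4 and 8.67. The last of the 5 lay on chromosome 19, where both peaks began at 5576563 and ended at 5576984 in RIP-1 and at 5576978 in RIP-2, with fold enrichments of 6.67 and 5.68.

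At the border of the rule, the choice between match and no match rested on a few bases. The 5 pairs just inside had a smaller overlap of 50% to 50.07% and the 5 just outside 49.90% to 49.96%. A RIP-1 peak on chromosome 3 from 80292367 to 80293010 overlapped its partner by 322 bp, exactly 50% of its width, and was kept. On chromosome 10 a RIP-1 peak from 112418060 to 112419159 overlapped a RIP-2 peak by 656 bp, or 49.96% of the wider one, and was not. Overlaps spread over the whole range above the limit, with a median smaller overlap of 71.3%. At least 80% was reached by 928 pairs (29.3%, 95% interval 27.7 to 30.9) and at least 90% by 326 (10.3%, 9.27 to 11.4).

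Closely matched peaks were wider than the other RIP-1 non-exon peaks, at 801 bp in the median (middle 50% from 606 to 1100) against 699 bp (547 to 994). Peaks with only a looser overlap were wider still, at a median of 1033 bp, and peaks that touched nothing in RIP-2 had 684 bp. Width is among the values that the rule compares, so this difference was not tested. The share of closely matched peaks was 7.31% (95% interval 6.37 to 8.38) in the narrowest of 10 about equally large width classes of RIP-1 peaks, from 206 to 447 bp. It reached 16.3% (14.9 to 17.7) in the class from 930 to 1134 bp, and was 13.7% (12.4 to 15) in the widest class. There, looser overlaps were more frequent than close ones, at 16.2%.

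Within a pair the RIP-1 peak was more often the wider one, in 1954 of 3171 pairs (61.6%, 95% interval 59.9 to 63.3). The median width ratio of RIP-1 peak over partner was 1.10, inside the range of 0.5 to 2 that the rule leaves. In 969 pairs the partner lay inside the RIP-1 peak (30.6%) and in 440 the RIP-1 peak lay inside the partner (13.9%). The partners were themselves wide for their list, at 734 bp in the median, against 561 bp for the rest of the RIP-2 list.

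The widest closely matched peak was on chromosome X, from 64297408 to 64307927 in RIP-1 (width 10520 bp) and from 64299104 to 64305291 in RIP-2 (6188 bp). The fold enrichments of this pair were 4.89 and 4.56, both below the median of their lists. The next was on chromosome 22, from 24766887 to 24773709 in RIP-1 and from 24767724 to 24772907 in RIP-2, with midpoints only 17.5 bp apart, fold enrichments of 5.56 and 7.90, and a RIP-1 mRNA-list interval 1598 bp away. The other 3 began in RIP-1 at 163888906 on chromosome 6, at 227887726 on chromosome 1 and at 109260648 on chromosome 2. On chromosome 2 the RIP-1 peak of 5381 bp and its partner of 5241 bp covered 97.4% of each other or more.

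**Figure D2:**
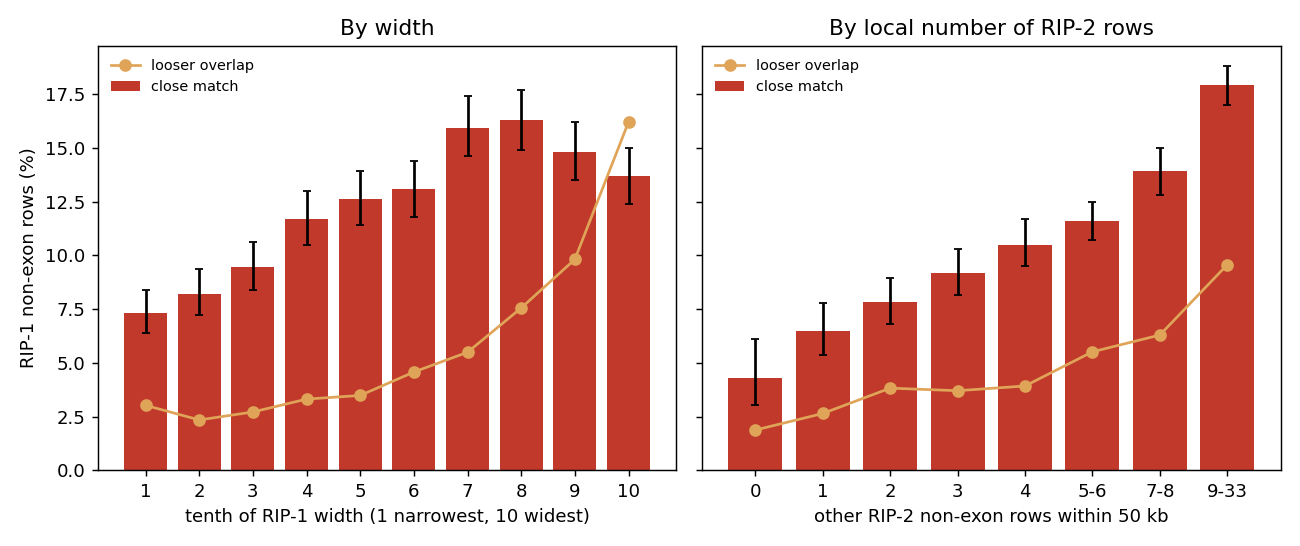
Bars give the percentage of RIP-1 non-exon peaks that were closely matched, with 95% Wilson intervals, and the line the percentage with a looser overlap, by class of RIP-1 width, 10 about equally large classes (left), and by the number of other RIP-2 non-exon peaks within 50 kb (right). Close matches rise from 7.31% to 16.3% with width before falling to 13.7%, and from 4.31% to 17.9% with the local number of RIP-2 peaks.

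Closely matched peaks stood where RIP-2 peaks were frequent. Apart from those they overlapped, they had a median of 7 RIP-2 non-exon peaks within 50 kb of their midpoint, against 5 around the other RIP-1 peaks. This was not particular to close matches: peaks with only a looser overlap also had a median of 7. Of these, 41.6% had 9 or more such RIP-2 peaks, against 37.0% of closely matched peaks. With no such RIP-2 peak nearby, 30 of 696 RIP-1 peaks were matched (4.31%, 95% interval 3.04 to 6.09). With 9 or more, 1174 of 6559 were (17.9%, 17 to 18.8), and the share was higher in each of the 8 classes than in the one before. The local number of RIP-1 peaks differed less, with means of 1.75 around matched and 1.60 around other peaks. The part of local RIP-2 crowding in the matches was not tested.

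By chromosome, the matched share ran from 11% to 13.9% on 21 of the 22 autosomes and on X, with chromosome 19 below. Chromosome Y had only 32 RIP-1 non-exon peaks, of which 3 were matched (9.38%, 95% interval 3.24 to 24.2). The highest values were 13.9% on X (188 of 1350, 95% interval 12.2 to 15.9) and 13.9% on chromosome 13 (114 of 819, 11.7 to 16.5), and their intervals overlap those of most other chromosomes. Chromosome 19 had 39 of 703 RIP-1 peaks matched (5.55%, 4.08 to 7.49). It held 2.73% of all RIP-1 non-exon peaks, 1.38% of the RIP-2 peaks and 1.23% of the matched ones. RIP-2 had 2.64 non-exon peaks for each RIP-1 peak there, against 5.2 over all chromosomes and 6.92 on chromosome 13.

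Set against the RIP-2 list, chromosome 19 was ordinary, with 21.0 matched peaks per 1000 RIP-2 peaks beside 23.6 over all chromosomes. Chromosome 17 stood out on that scale, at 30.8 per 1000, the highest of the chromosomes. Its 113 matched peaks made up 11.6% of its 973 RIP-1 peaks (95% interval 9.75 to 13.8), with 3.77 RIP-2 peaks for each RIP-1 peak. Across the 22 autosomes and X, the matched share and the number of RIP-2 peaks per RIP-1 peak went together with a Pearson r of 0.807 and a Spearman rho of 0.680. Without chromosome 19 these were 0.603 and 0.634 over 22 chromosomes. Both quantities have the number of RIP-1 peaks as their denominator, so the correlation is only a description.

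**Figure D3:**
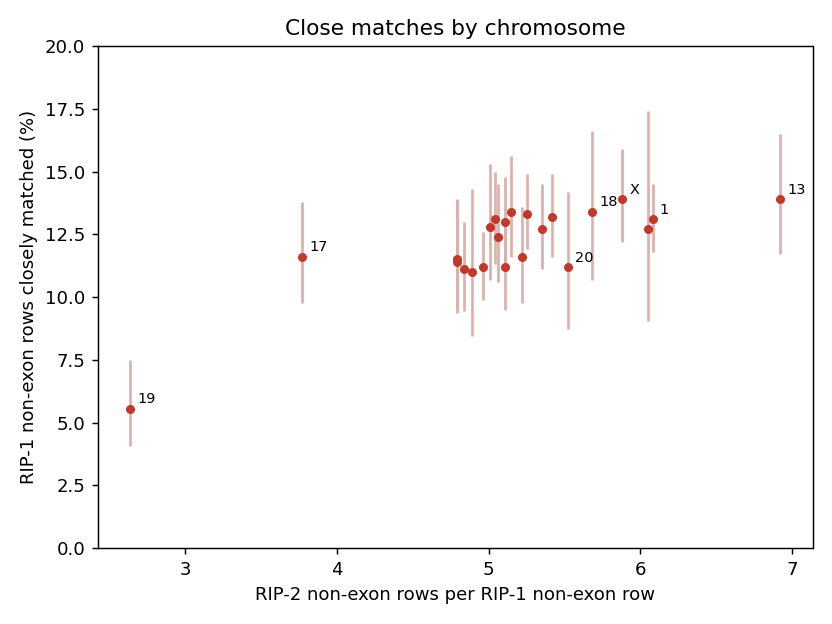
Each point is an autosome or X: the number of RIP-2 non-exon peaks per RIP-1 non-exon peak (horizontal axis) and the percentage of RIP-1 non-exon peaks that were closely matched (vertical axis, with 95% Wilson intervals). Chromosome 19 lies alone at 2.64 and 5.55%, chromosome 17 at 3.77 and 11.6%, and all the rest have more than 4.5 RIP-2 peaks per RIP-1 peak.

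The runs of matched peaks were short. In the order of RIP-1 non-exon peaks along a chromosome, 2341 of 3171 (73.8%) had an unmatched neighbour or none on either side, 307 runs held 2 matched peaks, 58 held 3, 8 held 4 and 2 held 5. Since only 12.3% of the RIP-1 peaks were matched, most would have unmatched neighbours in any case, and nothing is read from these counts. The gap from a matched peak to the nearest other matched peak was 195231 bp in the median, against 260362 bp from the other RIP-1 peaks to a matched one. Another matched peak lay within 100 kb of 1096 of the 3171 (34.6%, 95% interval 32.9 to 36.2), where all RIP-1 non-exon peaks gave 29.3% and the other RIP-1 peaks 28.5% (27.9 to 29.1). Among RIP-1 peaks with 9 or more RIP-2 peaks nearby the values were 52.2% for matched and 52.7% for other peaks, and with 7 or 8 they were 35.5% and 34.3%. Over the 8 classes of RIP-2 crowding, matched peaks had the higher share in 5 and the lower in 3. In classes of width they had the higher share in 9 and the lower in 1. They had the higher share in all 10 classes of score and in all 10 classes of fold enrichment. With the RIP-2 list shortened by score to the length of the RIP-1 list, the shares were 15.7% of matched and 9.36% of other peaks.

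At the scale of 100 kb windows, 275 windows held 2 matched peaks, 33 held 3 and 5 held 4. The 5 fullest windows were on chromosome 4 from 20400001, chromosome 15 from 25600001, chromosome 16 from 69600001, chromosome 19 from 50600001 and chromosome 22 from 28700001. All RIP-1 non-exon peaks were matched in 3 of them, with 4 of 4 on chromosomes 16, 19 and 22, and 4 of 6 were on chromosomes 4 and 15. RIP-2 had from 9 to 19 non-exon peaks in these windows. The windows on chromosomes 19 and 22 had no mRNA-list interval of either experiment, and the others had 1 or 2.

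Of the runs of 5, the shorter was on chromosome 22, where 5 consecutive RIP-1 peaks between 28707737 and 28810671 were matched. The one with the highest score in both experiments and the highest RIP-2 fold enrichment ran from 28731467 to 28735257 in RIP-1, with a fold enrichment of 5.68 and a score of 120, and from 28731176 to 28735591 in RIP-2, with a fold enrichment of 15.2 and a score of 534. The score behaves as 10 times the negative log10 of the caller's p-value. For the other 4, fold enrichments ranged from 4.31 to 8.01 in RIP-1 and their partners' from 6.26 to 10.1. No mRNA-list interval was within 210468 bp of any of the 5. Another run of 5 covered 343596 bp of chromosome 11 from 12761399 to 13104994, with RIP-1 fold enrichments of 5.57 to 9.29 and RIP-2 values of 6.44 to 11.1. On chromosome 15 a run of 4 fitted into 24915 bp from 25647574 to 25672488. Its second peak lay 1806 bp from a RIP-1 mRNA-list interval, and its last had fold enrichments of 10.1 (RIP-1) and 9.15 (RIP-2).

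Distance to the mRNA lists was not part of the rule. Closely matched peaks were less often close to a RIP-1 mRNA-list interval than the other RIP-1 non-exon peaks, while for RIP-2 mRNA-list intervals the 2 shares lay closer together, with matched peaks slightly higher. That order turned under stricter matching, to 8.73% of matched and 8.75% of other peaks at 80% overlap and to 8.55% and 8.77% with midpoints at most 100 bp apart. A RIP-1 interval lay within 10 kb of 277 of 3171 matched peaks (8.74%, 95% interval 7.80 to 9.77) and of 3076 of 22626 other peaks (13.6%, 13.2 to 14.0). Among these other peaks the share was 8.55% (7.25 to 10.1) with a looser overlap and 14.0% (13.5 to 14.4) with none. The lower share was therefore not particular to close matches. For RIP-2 intervals the counts were 306 matched peaks (9.65%, 8.67 to 10.7) and 1952 other peaks (8.63%, 8.27 to 9.0). Among these other peaks the share was 11.8% (10.3 to 13.5) with a looser overlap and 8.40% (8.03 to 8.78) with none. An interval of either experiment lay within 10 kb of 506 matched peaks (16.0%, 14.7 to 17.3), beside 19.4% of all RIP-1 non-exon peaks. Whether the contrast differs between the RIP-1 and RIP-2 mRNA lists was not tested, and with 1 list per experiment no test over samples is possible.

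The lower share near RIP-1 mRNA-list intervals was seen in all 10 classes of width, in all 10 classes of score and in all 8 classes of RIP-2 crowding. Among the widest peaks the shares were 13.6% of matched and 28.1% of other peaks, and among the peaks of highest score 10.9% and 25.9%. With no other RIP-2 peak within 50 kb they were 13.3% of 30 matched and 30.8% of 666 other peaks, and with 1 such peak 5.83% and 22.9%. The gap was narrow where RIP-2 peaks were most crowded, with 6.05% and 6.30%. For RIP-2 mRNA-list intervals matched peaks had the higher share in 5 and the lower in 5 of the width classes, the higher in 8 and the lower in 2 of the score classes, and the higher in 7 and the lower in 1 of the classes of RIP-2 crowding. Leaving out chromosome 19 gave 8.56% of matched and 12.9% of other peaks near a RIP-1 interval.

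**Figure D4:**
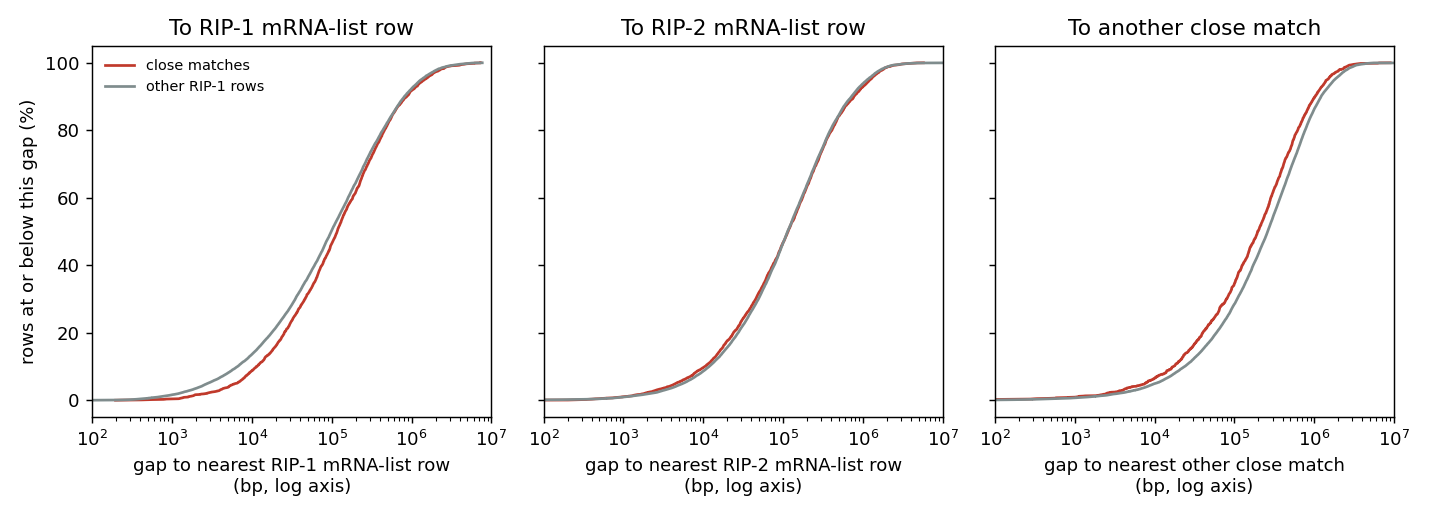
Cumulative percentage of closely matched peaks and of other RIP-1 non-exon peaks by the gap (bp, log axis) to the nearest RIP-1 mRNA-list interval, the nearest RIP-2 mRNA-list interval and the nearest other closely matched peak. The curve of matched peaks runs below that of other peaks at 10 kb in the first panel (8.74% and 13.6%), nearly on it in the second (9.65% and 8.63%) and above it at 100 kb in the third (34.6% and 28.5%).

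Few matched peaks stood directly beside an mRNA-list interval. Within 1 kb there were 43 with an interval of either list (1.36%, 95% interval 1.01 to 1.82), against 576 other peaks (2.55%, 2.35 to 2.76). Peaks with only a looser overlap had 1.26% (0.808 to 1.96), so the low share was not particular to close matches. For the RIP-1 list alone the shares were 0.410% of matched and 1.65% of other peaks. For the RIP-2 list alone they were 1.04% and 0.977%, so matched peaks were not lower there. Only 3 matched peaks had intervals of both experiments within 1 kb of the RIP-1 peak, and no comparison value was computed for this count. Within 10 kb, intervals of both experiments were found for 77 matched peaks (2.43%, 95% interval 1.95 to 3.02). For other peaks the share was nearly the same, at 533 (2.36%, 2.17 to 2.56). On chromosome 3, the matched pair began at 137954740 in RIP-1 and at 137954887 in RIP-2. A plus-strand interval from 137953875 to 137953956 was in both mRNA lists, 783 bp from the RIP-1 peak. The non-exon peaks there had fold enrichments of 9.34 (RIP-1) and 5.53 (RIP-2). On chromosome 4, the pair began at 130011682 in RIP-1 and at 130011630 in RIP-2, with fold enrichments of 5.54 and 4.40. Its RIP-1 peak lay 505 bp from a minus-strand interval that began at 130014224 in both lists. The RIP-2 partner ended at 130013057, more than 1 kb from that interval. On chromosome 20, the pair began at 47783176 in RIP-1 and at 47783346 in RIP-2, with fold enrichments of 4.06 and 9.63. Its RIP-1 peak lay 353 bp from a minus-strand interval that ran from 47782533 to 47782822 in both lists. At these places, mRNA-list intervals of both experiments lay within 1 kb of the RIP-1 peak of a matched pair. A single matched peak overlapped an mRNA-list interval (0.0315%, 95% interval 0.00557 to 0.178). Such overlaps were rare in the whole list, at 0.0853% of all RIP-1 non-exon peaks (0.0563 to 0.129). The matched one lay on chromosome 6 from 52317160 to 52319198, where the interval belonged to the RIP-2 list. It was picked out after its distance was seen.

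Strength did not enter the rule, but the values come from the same peak calls, so they are described without a test. By the authors' false discovery rate (FDR), most of the matched RIP-1 peaks were weak calls. It was 100% for 2998 of the 3171 (94.5%, 95% interval 93.7 to 95.3) and for 94.0% of the other RIP-1 peaks. Among the RIP-2 partners it was 100% for 48.5% (46.7 to 50.2), beside 41.4% (41.1 to 41.7) of the other RIP-2 peaks. An FDR of 100% did not mark a weak call in RIP-2, where the FDR of the listed partners rose with score. For example, partner scores of 53.7, 87.0 and 1026 had FDRs of 70.7%, 98.3% and 100%. Fold enrichment of the matched peaks in RIP-1 had a median of 6.31 (middle 50% from 5.2 to 7.47), against 6.58 (5.39 to 7.71) in the other RIP-1 peaks. With matches defined by midpoints at most 100 bp apart, the order turned, to 6.61 for matched and 6.54 for other peaks. The median score was 68.9 for matched and 66.7 for other peaks. Within width classes, the fold enrichment of matched peaks was the higher one in 2, the lower in 5 and equal in 3. A fold enrichment of 10 or more was found in 134 matched peaks (4.23%, 95% interval 3.58 to 4.98), beside 4.62% of all RIP-1 non-exon peaks. Among the partners 25.5% (24.1 to 27.1) had 10 or more, beside 23.9% of all RIP-2 non-exon peaks. Both shares are near those of the whole lists.

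The highest scores of the RIP-1 list were rare among the matched peaks. A score of at least 400 occurred in 2 matched peaks (0.0631%, 95% interval 0.0173 to 0.230) and in 205 other RIP-1 peaks (0.906%, 0.791 to 1.04), whose scores went up to 3100. Of those other peaks, 204 touched no RIP-2 peak (0.966% of 21118) and 1 had a looser overlap (0.0663% of 1508). The rarity was thus shared by peaks with a looser overlap and was not particular to close matches. The same 2 matched peaks were the only ones with an FDR of 5% or less in RIP-1, where all RIP-1 non-exon peaks gave 0.678%. Both lay on chromosome 19 and were singled out after their values were seen. The first, from 48439227 to 48439862 in RIP-1, had a score of 470, a fold enrichment of 4.28 and an FDR of 4.11%. Its partner from 48439060 to 48439808 in RIP-2 had a score of 298 and an FDR of 100%. The second ran from 50639925 to 50640714 in RIP-1 with a score of 422 and from 50639914 to 50640707 in RIP-2 with a score of 1026, the highest among the partners, and the 2 midpoints were 9 bp apart. The lowest FDR among the partners was 68.3%, which is also the lowest of the rest of the RIP-2 list. In the listed partners a lower FDR went with a lower score, so it does not mark the strongest of them.

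Strength was only weakly related within pairs. Across the 3171 pairs the fold enrichments correlated with a rho (Spearman) of 0.227 and an r (Pearson, log10 scale) of 0.224, and the scores with a rho of 0.0633 and an r of 0.115. The 2 peaks of a pair share position and, by the rule, much of their width, and peaks are not independent replicates. Width itself moved with fold enrichment in the matched peaks (rho of -0.373), and its part in these correlations was not tested. The RIP-1 peak had the higher fold enrichment in 798 pairs (25.2%, 95% interval 23.7 to 26.7), and the median ratio of RIP-1 peak over partner was 0.791. Outside the pairs the lists differed in the same direction, with median fold enrichments of 6.58 in the other RIP-1 peaks and 8.19 in the other RIP-2 peaks. The control and the depth behind the calls are unknown, so the ratio within pairs describes the 2 peak calls only. A fold enrichment of 10 or more in both experiments was found in 51 pairs (1.61%, 1.23 to 2.11). Many peaks share a fold enrichment exactly: the 3171 RIP-1 values took 662 distinct levels and the partners' values 739, visible as rows of points in the plot of fold enrichment.

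**Figure D5:**
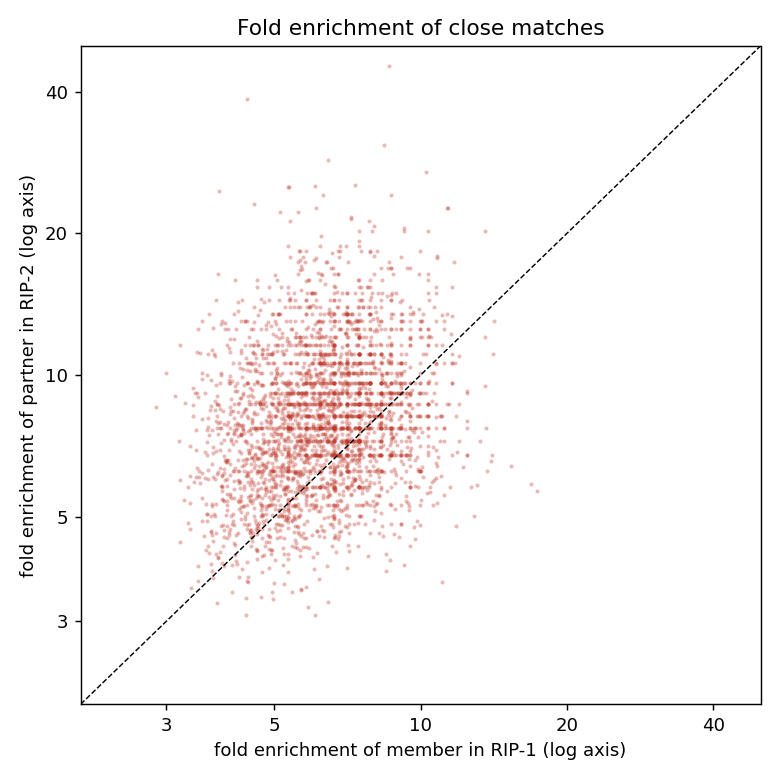
Fold enrichment of each closely matched RIP-1 peak (horizontal, log axis) against that of its RIP-2 partner (vertical, log axis), 3171 pairs, with the line of equality dashed. Most points lie above the line, since the RIP-1 value was the higher one in 25.2% of pairs, and the cloud is only slightly tilted (rho of 0.227).

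The pairs with the highest lower fold enrichment of the 2 experiments were few and scattered over 8 chromosomes. First was a pair on chromosome 1, from 25591014 to 25591978 in RIP-1 with a fold enrichment of 13.6 and a score of 326, and from 25591281 to 25591977 in RIP-2 with 20.2 and 272. Their ends differed by 1 bp and another matched peak lay 1007 bp away. Next came chromosome 8, where the RIP-1 peak from 7084212 to 7085253 had a fold enrichment of 14.2 and its partner from 7084712 to 7085522 had 13, with a smaller overlap of 52.0%, close to the limit. The third was a narrow pair on chromosome 19, from 56285420 to 56285676 in RIP-1 (fold enrichment 13.6) and from 56285445 to 56285716 in RIP-2 (12.1).

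For the other 7 of these 10, fold enrichments ranged from 11.3 to 11.7 in RIP-1 and their partners' from 12.2 to 22.7. By their RIP-1 starts they lay at 16039767 on chromosome 5, 47022080 on chromosome X, 170805727 on chromosome 1, 30945121 on chromosome 8, 108679740 on chromosome 11, 26781574 on chromosome 7 and 116508917 on chromosome 9. The pair on chromosome 11 combined strength with close edges, with 93.1% overlap and fold enrichments of 11.4 for the RIP-1 peak and 22.7 for its partner. The nearest mRNA-list interval was within 10 kb for 2 of the 10, at 5807 bp on chromosome X and at 3825 bp on chromosome 8, where both mRNA lists had one at that distance. Of all RIP-1 non-exon peaks 19.4% had an interval within 10 kb, so nothing is read from this count.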

How the data were processed

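The data were 4 deposited peak lists. The genome build hg19 and the tools HISAT2 2.0.4 and cutadapt 1.9.3 are named per the submitters' processing notes. Peak names carry the prefix of MACS; its version and settings, and the control library, were not given in the sources used here. The deposited lists have no header, so the score (as 10 times the negative log10 of a p-value), the fold enrichment as a ratio and the FDR in percent were read from the values and the column order, as were the authors' positions and lengths. Library depth is unknown. In the non-exon lists the first base is 1 and the end base belongs to the peak; mRNA-list positions are used as deposited, within 1 bp.

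Pairs, gaps between edges and local numbers were computed with Python 3.11.15, numpy 2.4.6, pandas 2.3.3 and scipy 1.17.1, and checked on made-up intervals. Gaps and local numbers were taken from the RIP-1 peak of a pair. Numbers within 50 kb leave out overlapped RIP-2 peaks. Wilson intervals (95%) assume independent peaks, so they hold counting error and nothing else; the upper limit for 0 uses 3 counts. No test was run: each list is 1 call and the rule used both. The rule, lists and comparisons were chosen with earlier results of these data known. Regions were named by rank (10 by the lower fold enrichment, 5 by edge difference, width, closeness to the limit and window count, 3 runs, up to 5 beside mRNA-list intervals of both experiments). Classes of width, score, fold enrichment and crowding, the contrasts without chromosome 19, and fold enrichment under other definitions, were added after seeing the data.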

Additional observations from a re-analysis of the deposited data

How the results depend on the processing

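Of 27 alternative values, 9 stayed within 1.5 times the count or inside the 95% interval of the reported value and 18 moved. The direction of several was fixed in advance, such as shares at other distances or for a single mRNA list. The tally is therefore no measure of robustness. Overlaps of at least 80% left 928 matched peaks by construction, with a median width of 762 bp and another matched peak within 100 kb for 15.8%, against 10.1% of the other peaks under that definition. Midpoints at most 100 bp apart gave 1626 peaks of 718.5 bp, and the fold enrichment turned to 6.61 in matched and 6.54 in other peaks. The upper 50% of each list by score gave 983 peaks, with a median width of 921 bp, offset of 121 bp and fold enrichment of 6.80 (7.21 in the other peaks), and a RIP-2 list shortened by score to the length of the RIP-1 list gave 836 of 899.5 bp. Within 10 kb and 1 Mb, 6.53% and 89.6% had another matched peak. An mRNA-list interval was near 8.74% (RIP-1 list alone), 9.65% (RIP-2 list alone), 1.36% (within 1 kb) and 61.8% (within 100 kb). Against only the RIP-1 peaks that touch no RIP-2 peak, the comparison value for another matched peak within 100 kb was 27.6%. Under all 5 other definitions of a matched peak the share within 10 kb of a RIP-1 mRNA-list interval, from 7.75% to 9.06%, was below that of the other peaks, from 13.2% to 15.9%. For RIP-2 intervals the order turned under 2 of the 5, with 8.73% of matched and 8.75% of other peaks at 80% overlap and 8.55% and 8.77% for midpoints at most 100 bp apart. The causes of these turns were not tested here. No paired analysis was possible because the lists give 1 peak call for each experiment and no value of a single library. Unknown depth limits every comparison between RIP-1 and RIP-2.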

Other observations

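Matched peaks between mRNA-list intervals mostly had the same strand on both sides. Of 492 closely matched peaks with an mRNA-list interval of either experiment within 50 kb on each side, 422 had both intervals on the same strand (85.8%, 95% interval 82.4 to 88.6). Among 4239 other RIP-1 non-exon peaks flanked in this way the share was 79.9% (78.7 to 81.1). Within 10 kb on each side the shares were 92.2% of 77 matched peaks (84.0 to 96.4) and 91.3% of 762 other peaks (89.1 to 93.1). The non-exon peaks have no strand of their own, and several peaks can share the same pair of intervals, so these shares were not tested.

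The 1508 RIP-1 peaks with a looser overlap gave the following values. Another matched peak lay within 100 kb of 40.8% of them (95% interval 38.3 to 43.3), and a RIP-1 mRNA-list interval within 10 kb of 8.55% (7.25 to 10.1). Their median width ratio of RIP-1 peak over RIP-2 peak was 1.74, and their midpoints were 478 bp apart in the median.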
